A study of Sus scrofa with 32 samples.

Results

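The genes described here were 10 genes grouped as uterine developmental transcription factors: FOXA2, SOX17, PAX8, EMX2, MSX1, MSX2, HAND2, WT1, FOXO1 and RFX6. They were chosen by name and matched by symbol to the NCBI genes of the count tables, and 9 of the 10 were found among 30185 genes. PAX8 had no entry under that symbol in the annotation used here and was not analysed here. Endometrium came from 8 gilts on Day 14, all synchronised with eCG and hCG. Pregnant gilts had been inseminated with semen and nonpregnant gilts, called cyclic below, with semen supernatant of the same boar. Tissue of pregnant gilts was taken at the hyperemic zones where conceptuses attach, so the pregnant group shows the uterus at attachment sites and the cyclic group has no matching site. Stroma (S), blood vessels (BV) and both epithelia, luminal (LE) and glandular (GE), were cut from stained frozen sections by laser capture microdissection and sequenced as low-input RNA libraries. Each group held 4 gilts, but glands of pregnant gilt P41 were not analysed here, which left n = 3 in pregnant GE and 31 libraries. Gilts are named by the letter of their group and their number in the labels, C40, C42, C78 and C128 for cyclic and P39, P41, P43 and P139 for pregnant.

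As background, FOXA2 is the forkhead factor of uterine glands and is needed for gland formation. SOX17 acts in uterine epithelium upstream of Indian hedgehog and is also a factor of arterial endothelium, EMX2 and PAX8 take part in the development of the Mullerian duct, and MSX1 and MSX2 are homeobox factors of the uterine epithelium that are linked to receptivity and to Wnt signalling. HAND2 is a progesterone-dependent factor of the stroma that holds down fibroblast growth factors, WT1 is a zinc finger factor of mesenchyme, FOXO1 is a forkhead factor kept out of the nucleus by insulin and AKT signalling, and RFX6 is a winged helix factor best known from the endocrine pancreas.

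Several members have close relatives, and a stretch in which MSX1 and MSX2 have the same letters is shown. Reads that lie wholly within it could come from either gene, while reads that reach past it meet a base that differs. The sequences are coding strands, 5′ to 3′, from RefSeq's Sscrofa11.1 genome, with the longest run that both genes share in capitals and 40 bases or fewer on each side in lower case. MSX1 (chr8:5629408-5629507, minus strand) and MSX2 (chr16:49767184-49767283, minus strand) shared a run of 20 bases in their last coding exons.
MSX1: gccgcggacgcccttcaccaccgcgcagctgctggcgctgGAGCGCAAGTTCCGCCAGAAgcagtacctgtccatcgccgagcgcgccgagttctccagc
MSX2: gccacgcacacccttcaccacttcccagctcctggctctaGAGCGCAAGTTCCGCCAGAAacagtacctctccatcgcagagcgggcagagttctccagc
The longest run that FOXO1 shared with its relative FOXO3 had 37 bases, and FOXA2 with FOXA1 and SOX17 with SOX7 and SOX18 are likewise close relatives. FOXA1 had a mean of 0.31 CPM (counts scaled to the library size) in cyclic GE and no count in the other 7 groups of libraries. Means of SOX18 were 1.19 CPM (cyclic) and 1.33 CPM (pregnant) in GE, against 23.8 and 57.9 CPM in BV. EMX2 overlaps the start of an antisense long noncoding gene, LOC102164998, and WT1 overlaps LOC102161978. Whether the counting used strand was not given in the sources used here, so reads in those overlaps cannot be told apart.

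Library totals lay between 2415216 and 7081556 counts, and 3 counts in a library correspond to 0.424 to 1.24 CPM, the upper limit that a count of 0 allows, for counting error only. CPM values below were scaled together over the 31 libraries. Genes that the authors kept after their CPM filter are called detectable, which held for 8 members in each of LE, GE and S and for 7 in BV. Below, called without a tool's name refers to the quasi-likelihood test of edgeR. FOXA2 was detectable in GE only, MSX2 was not in BV and HAND2 was not in GE. The captures were checked with 10 markers for each cell type. Summed epithelial markers were 2503 to 3547 CPM in LE and 1769 to 2163 CPM in GE, against 3.67 to 351 CPM in BV and 12.0 to 509 CPM in S. Summed fibroblast markers were 39123 to 108267 CPM in S and 27130.4 to 93648 CPM in BV, with 4464 to 17811 CPM in LE and 2988 to 7623 CPM in GE. Within LE, the epithelial sum was 3035 to 3547 CPM in cyclic and 2503 to 2794 CPM in pregnant libraries. There 3 of 10 epithelial markers were higher in pregnant gilts, and 2 of the 10 were called. All 9 endothelial markers tested in LE were higher in pregnant gilts, and 0 were called. The part of these marker differences in the LE results below was not tested. In such captures a lower level of a gene can reflect fewer cells of a type or less RNA per cell, and these cannot be told apart.

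FOXA2 and RFX6 were the gland genes of the set. FOXA2 had 92.6, 65.1, 78.6 and 72.8 CPM in GE of cyclic gilts C128, C40, C42 and C78, and 94.2, 73.3 and 73.7 CPM in pregnant gilts P139, P39 and P43. RFX6 had 391, 339, 325 and 351 CPM in the same cyclic gilts and 593, 638 and 447 CPM in the pregnant ones. The groups overlapped for FOXA2, whereas each pregnant library was above each cyclic library for RFX6. In GE the pregnancy effect was 0.05 on the log2 scale for FOXA2 (SE 0.17, adjusted p = 0.895) and 0.66 for RFX6 (SE 0.17, adjusted p = 0.0831), neither called. The robust GLM did not call RFX6 either, but DESeq2 did (adjusted p = 0.00335).

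**Figure D1:**
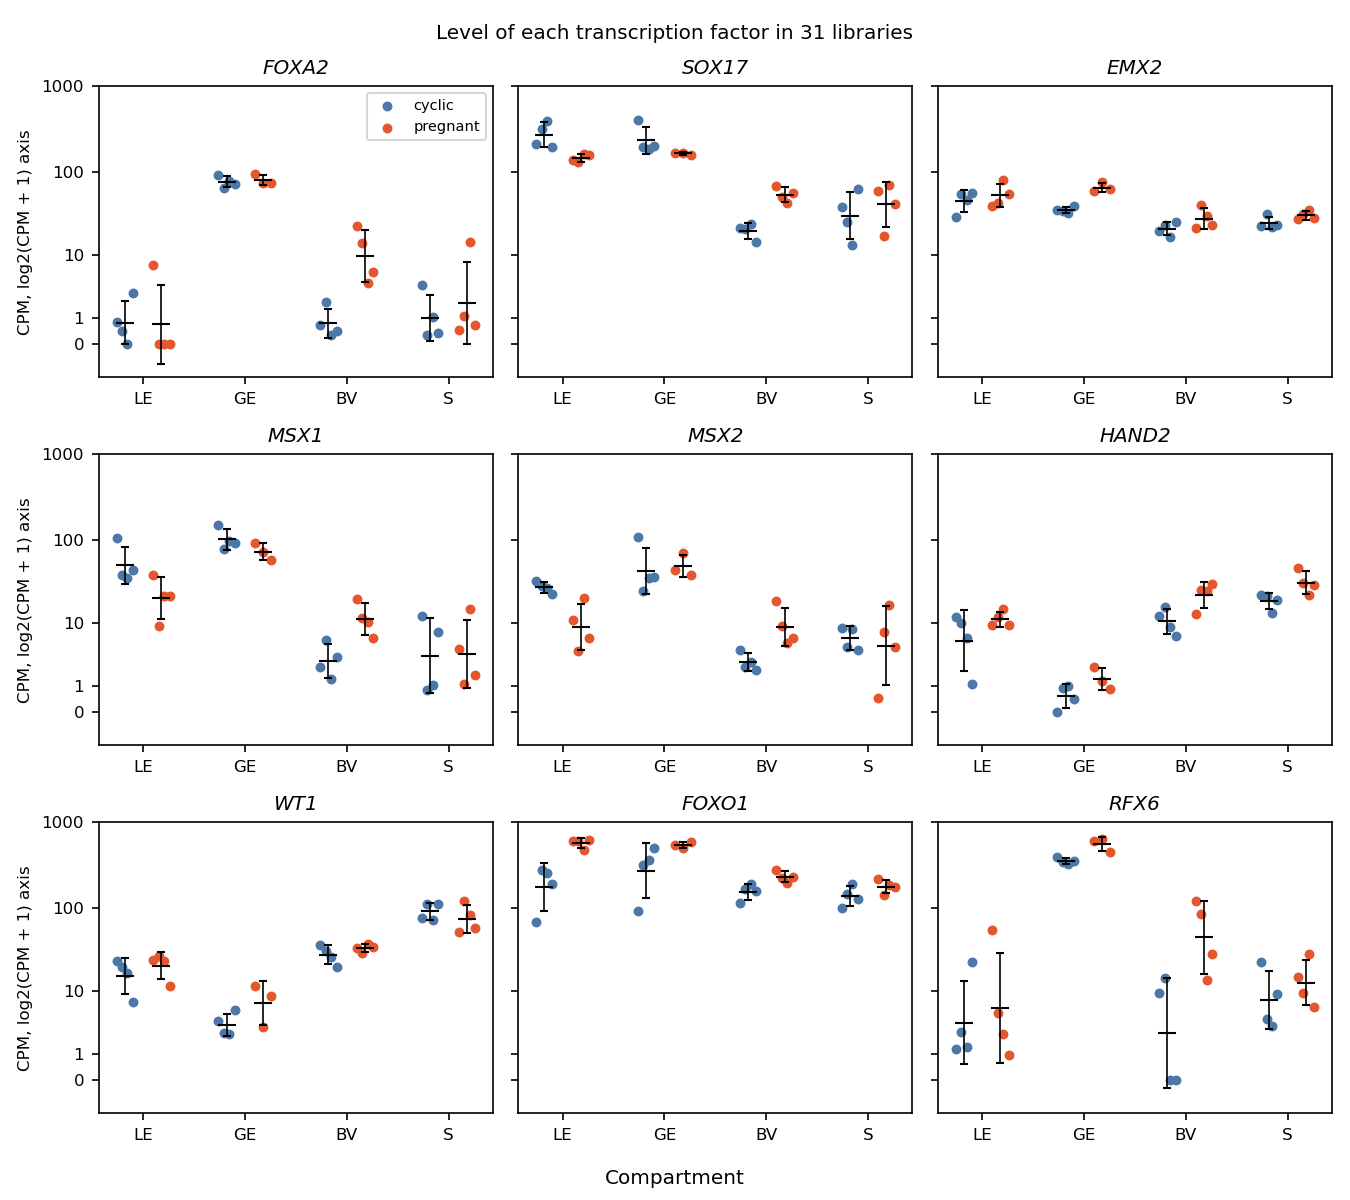
Level of each of 9 transcription factors in every library of LE, GE, BV and S, on a log2(CPM + 1) axis labelled in CPM. Points are libraries (blue, cyclic; red, pregnant) and black bars are the mean ± SD of the log2 values (n = 4, or 3 in pregnant GE). FOXA2 and RFX6 stand out in GE, SOX17, MSX1, MSX2, EMX2 and FOXO1 are high in both epithelia, and HAND2 and WT1 are highest in S.

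Outside the glands both genes were low and uneven between libraries. Mean FOXA2 was 1.45 CPM in LE, 6.28 CPM in BV and 2.77 CPM in S, and GE was above each, with log2 differences of -6.08 for LE minus GE (SE 0.74), 4.73 for GE minus BV (SE 0.70) and 5.27 for GE minus S (SE 0.75), each called. Mean RFX6 was 11.5 CPM in LE, 33.8 CPM in BV and 12.3 CPM in S, with log2 differences of -5.95 (SE 0.76), 4.76 (SE 0.72) and 5.29 (SE 0.77) in the same order, each called. No difference among LE, BV and S was called for either gene by the quasi-likelihood test (adjusted p from 0.170 to 0.766) or by DESeq2. The robust GLM called FOXA2 lower in LE than in BV (log2 difference -3.00, adjusted p = 1.68e-05) and than in S (-1.81, adjusted p = 0.00995).

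In LE, FOXA2 had no count in 3 of 4 pregnant libraries and 29 counts in pregnant gilt P139, which also held 215 of the 251 RFX6 counts of pregnant LE. That library reached 9.23% of the mean GE level for FOXA2 and 9.83% for RFX6. For RFX6 in LE the log2 fold change of pregnancy was 1.15 with all libraries and -1.39 without this one. In BV the pregnant gilts P139, P39, P41 and P43 stood at 28.3%, 17.4%, 5.22% and 7.35% of the GE level for FOXA2, and at 21.5%, 15.0%, 2.45% and 5.02% for RFX6. The 4 cyclic BV libraries were at 0.366% to 2.70% for FOXA2 and at 0 to 4.16% for RFX6. In S, pregnant gilt P41 held 44 of the 77 FOXA2 counts and 88 of the 392 RFX6 counts, and cyclic gilt C128 held 20 and 119. Epithelial markers in S summed to 198, 15.9, 12.0 and 182 CPM in C128, C40, C42 and C78. They summed to 303, 39.7, 509 and 118 CPM in P139, P39, P41 and P43, where P139 held 2 FOXA2 counts. The part of epithelial cells in the S levels of the members was not tested.

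**Figure D2:**
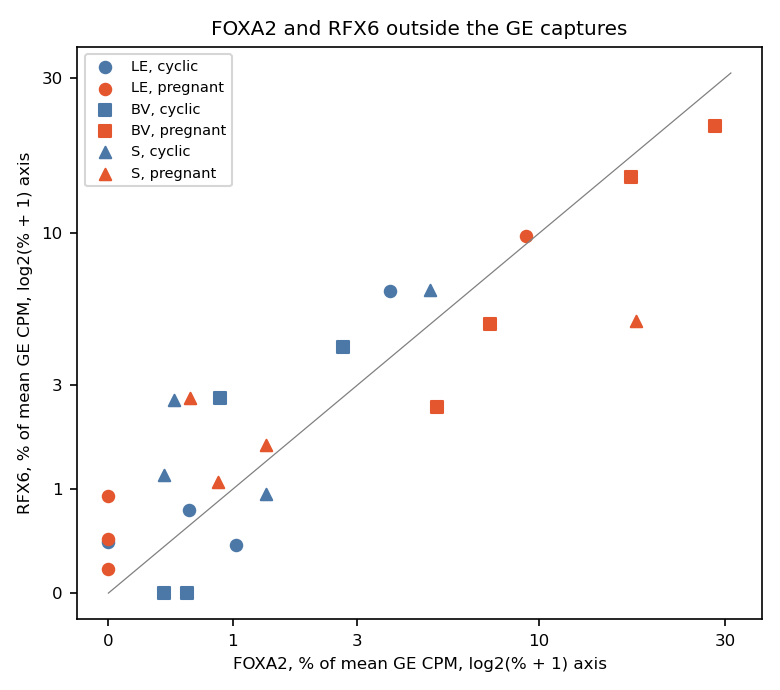
FOXA2 and RFX6 in each LE, BV and S library as a percentage of the mean CPM of that gene in GE, on log2(% + 1) axes, with circles for LE, squares for BV, triangles for S, blue for cyclic and red for pregnant. The grey line marks equal percentages, and BV of pregnant gilt P139, at 28.3% and 21.5%, was highest for both genes.

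RFX6 in BV had a log2 fold change of 3.33 (SE 1.01, adjusted p = 0.0696), with 2 of 4 cyclic libraries at 0 counts, and was not called. It ranged from 2.77 to 4.27 when 1 library was left out. The robust GLM called it (adjusted p = 0.00229) and DESeq2 did not (adjusted p = 0.152). FOXA2 was tested in BV only when all genes with a count entered the fit, where its log2 fold change was 3.64 (SE 0.67, adjusted p = 0.0118) and it was called, as were 1.3% of those genes. Epithelial markers were also higher in these captures. Cyclic BV held 3.67, 32.1, 33.1 and 54.6 CPM of the 10 together, and pregnant BV held 185, 202, 217 and 351 CPM. All 8 epithelial markers tested were higher in pregnant BV and 2 were called, and between 0 and 5 of the 10 were at 0 in a cyclic library. Their part in the BV results was not tested.

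SOX17 was the member that passed the test of pregnancy, and it did so in BV. It had 21.4, 20.6, 24.0 and 14.4 CPM in BV of cyclic gilts C128, C40, C42 and C78, and 68.6, 50.5, 42.7 and 56.1 CPM in pregnant gilts P139, P39, P41 and P43. Every pregnant library was above every cyclic one. The log2 fold change was 1.44 (SE 0.20, adjusted p = 0.0130), from means of 20.1 ± 4.08 and 54.5 ± 10.9 CPM (SD, n = 4 each). SOX17 was called in each of 8 fits that left out 1 library, with log2 fold changes from 1.31 to 1.54. Those fits were judged by the unadjusted p limit taken from LE, 3.28e-04. Their quasi-likelihood adjusted p ran from 0.0103 to 0.0458. SOX17 was 1 of 7 members tested in BV, where 1.86% of all genes were called, and the robust GLM and DESeq2 called it too (adjusted p = 4.68e-08 and 2.30e-07).

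The values in the epithelia lay the other way. SOX17 had 212, 320.2, 397 and 197 CPM in LE of the cyclic gilts C128, C40, C42 and C78, and 136, 129.5, 161 and 158 CPM in the pregnant gilts P139, P39, P41 and P43, without overlap. The log2 fold change of -0.93 (SE 0.23, adjusted p = 0.0352) did not pass the limit of 1% in LE, while the robust GLM and DESeq2 called it (adjusted p = 0.00719 and 0.00304). In GE it had 399.8, 193, 187 and 203 CPM in the cyclic libraries and 167, 167 and 158 CPM in the pregnant ones, again without overlap. The log2 fold change there was -0.59 (SE 0.28, adjusted p = 0.256), and from -0.69 to -0.26 when 1 library was left out. Neither the robust GLM nor DESeq2 called SOX17 in GE. In S the groups overlapped, with cyclic gilts at a mean of 34.8 ± 21.1 CPM and pregnant gilts at 46.7 ± 22.9 CPM (SD, n = 4 each).

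The difference of the SOX17 effects was tested directly in the joint fit with the gilt as a block. The effect in LE was lower than in BV (log2 difference -2.38, SE 0.54, adjusted p = 0.00828), which was called at 1%, beside 3.37% of all genes. That call was kept without cyclic gilt C78 and lost without any one of C40, C42, C128, P39, P41, P43 and P139, with differences from -2.53 to -2.24. It was also lost when genes detectable in at least 1 compartment entered the fit (difference -2.41). Between GE and BV the difference was -1.88 (SE 0.57, adjusted p = 0.0796), and between LE and GE it was -0.50 (SE 0.55, adjusted p = 0.695).

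The mean level of SOX17 was 214 CPM in LE and 205 CPM in GE, a difference that was not called (log2 0.01, SE 0.28), and 37.3 CPM in BV and 40.7 CPM in S, also not called (log2 -0.24, SE 0.28). Each epithelium was above BV and S by 2.37 to 2.62 on the log2 scale, with adjusted p from 1.04e-07 to 4.07e-07. SOX18 and SOX7, the relatives known from endothelium, had the opposite distribution. In BV, SOX18 stood at 23.8 ± 8.38 CPM (cyclic) and 57.9 ± 4.09 CPM (pregnant), and its log2 fold change of 1.28 (SE 0.24, adjusted p = 0.0181 by edgeR's quasi-likelihood test) lay just short of a call, while the robust GLM and DESeq2 called it. SOX7 had 14.5 ± 4.38 and 21.9 ± 9.48 CPM there (log2 fold change 0.61, SE 0.33, adjusted p = 0.251). Endothelial markers summed to 1619.9 to 3089 CPM in the cyclic and 1946 to 3247 CPM in the pregnant captures, with 8 of 10 higher in pregnant gilts and 1 called. Markers of smooth muscle and pericytes summed to 6921 to 20099.6 CPM and to 1560.5 to 8403 CPM, in the same order, with 0 of 10 higher and none called by the quasi-likelihood test. The part of these cell types, and of the epithelial markers given above, in the BV result of SOX17 was not tested.

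PAX2, a paired box factor of the urogenital tract and a relative of PAX8, was among the 3 genes most like SOX17 over the libraries (Pearson r = 0.957). It fell in LE from 277 ± 63.2 to 88.8 ± 22.9 CPM (SD, n = 4 each), a log2 fold change of -1.63 (SE 0.23, adjusted p = 0.00369). In GE, PAX2 had 85.3 CPM in both groups.

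**Figure D3:**
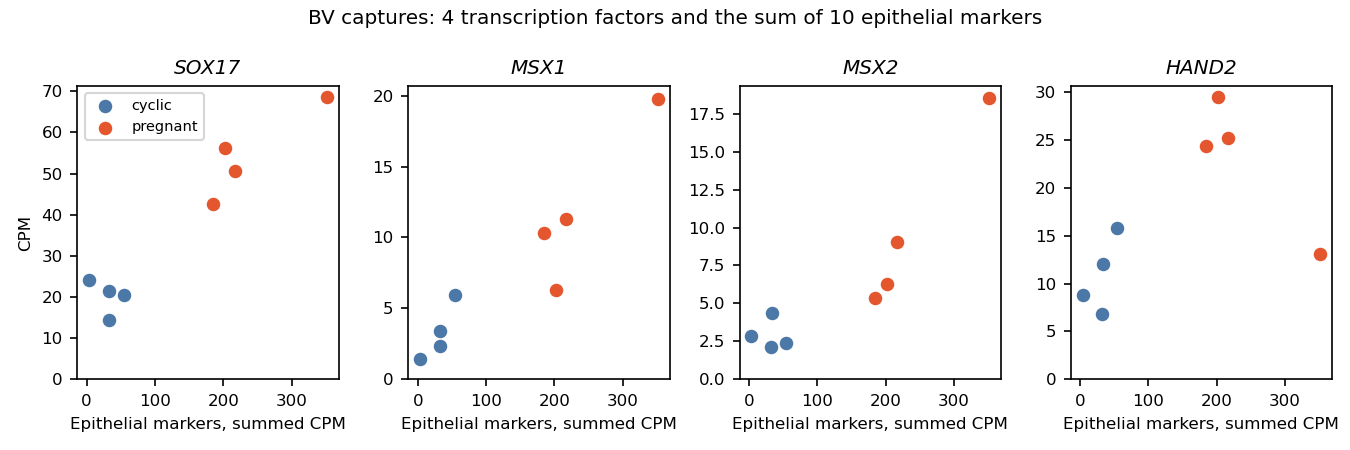
CPM of SOX17, MSX1, MSX2 and HAND2 in each BV library against the summed CPM of 10 epithelial markers in that library, with 4 cyclic (blue) and 4 pregnant (red) gilts. The groups were apart on the marker axis, at 3.67 to 54.6 against 185 to 351 CPM, and pregnant gilt P139 was highest for the markers, SOX17, MSX1 and MSX2 but lowest of the pregnant gilts for HAND2.

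MSX1 and MSX2 were genes of both epithelia with more in GE. MSX1 had a mean of 89.1 CPM in GE, 39.1 CPM in LE, 7.60 CPM in BV and 5.50 CPM in S, and MSX2 had 50.8, 18.9, 6.36 and 6.92 CPM. LE was below GE, with log2 differences of -1.51 (SE 0.35, adjusted p = 0.000996) for MSX1 and -1.68 (SE 0.36, adjusted p = 0.000514) for MSX2. Without the gilt as a block the MSX1 difference was -1.30 and was not called. BV and S were not called different for either gene (adjusted p = 0.646 and 0.792). The difference of MSX2 between LE and S (log2 1.39, SE 0.37, adjusted p = 0.00285) was lost without gilt C40, P43 or C78, at 1.31, 1.41 and 1.32.

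In LE, MSX2 had 32.2, 28.0, 26.7 and 22.9 CPM in cyclic gilts C128, C40, C42 and C78, and 10.7, 4.12, 20.5 and 6.37 CPM in pregnant gilts P139, P39, P41 and P43. The groups were apart by a narrow margin, between cyclic gilt C78 and pregnant gilt P41. The log2 fold change was -1.34 (SE 0.42, adjusted p = 0.0701), which the quasi-likelihood test and DESeq2 did not call and the robust GLM did (adjusted p = 0.000265). MSX1 had 105, 38.3, 35.2 and 43.7 CPM in the cyclic and 38.1, 9.18, 21.7 and 21.7 CPM in the pregnant libraries of LE in the same order of gilts. The groups overlapped through cyclic gilts C40 and C42 and pregnant gilt P139, cyclic gilt C128 was far above the rest, and the log2 fold change was -1.26 (SE 0.47, adjusted p = 0.118). MSX1 in LE was not called by the quasi-likelihood test, the robust GLM or DESeq2.

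In BV both genes were low and pregnant libraries were higher. MSX1 had 2.34, 5.96, 1.41 and 3.38 CPM in cyclic gilts C128, C40, C42 and C78, or 5 to 20 counts, and 19.8, 11.3, 10.3 and 6.28 CPM in pregnant gilts P139, P39, P41 and P43, or 17 to 47 counts. Its log2 fold change of 1.86 (SE 0.49, adjusted p = 0.0460) was not called, while the robust GLM and DESeq2 called it (adjusted p = 0.00146 and 0.00652). MSX2, with 2.11 to 4.35 CPM in the cyclic libraries and 5.34 to 18.5 CPM in the pregnant ones, was not detectable there, and in the fit of all genes with a count it was not called (log2 fold change 1.71, SE 0.46, adjusted p = 0.0573). The MSX1 effect in LE minus that in BV was -2.98 on the log2 scale (SE 0.77, adjusted p = 0.0178), which the quasi-likelihood test called at 1% only when gilt C40 was left out (-3.70), while the robust GLM and DESeq2 called it with all gilts. In GE, MSX1 had means of 105 ± 31.8 CPM (SD, n = 4) and 73.6 ± 16.8 CPM (SD, n = 3), and MSX2 had 50.9 ± 37.4 and 50.6 ± 16.5 CPM, with cyclic gilt C128 highest for both, at 151 and 106 CPM. In S, the group means of both genes lay between 5.43 and 7.35 CPM, and the groups overlapped.

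EMX2 was detectable in all 4 compartments, with the higher levels in the epithelia. Its mean was 50.6 CPM in LE and 50.4 CPM in GE, a difference that was not called (log2 -0.01, SE 0.14), and 25.0 CPM in BV and 27.7 CPM in S, likewise not called (log2 -0.16, SE 0.13). The epithelia were above BV and S by 0.85 to 1.03 on the log2 scale, each called. In GE, EMX2 had 35.0, 33.9, 32.4 and 39.9 CPM in cyclic gilts C128, C40, C42 and C78, and 58.9, 75.6 and 62.1 CPM in pregnant gilts P139, P39 and P43. The groups did not overlap, and the smallest gap was from 39.9 to 58.9 CPM. Pregnant GE was higher by 0.88 on the log2 scale (SE 0.15, adjusted p = 0.0436 by edgeR's quasi-likelihood test), which lay just short of a call. The robust GLM and DESeq2 called it (adjusted p = 0.00497 and 1.48e-04). In the other compartments the pregnant and cyclic values of EMX2 overlapped, with log2 fold changes from 0.24 in LE to 0.44 in BV.

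HAND2 and WT1 were lowest in GE. HAND2 had a mean of 25.6 CPM in S, 17.0 CPM in BV, 9.25 CPM in LE and 1.05 CPM in GE, where all 7 libraries together held 31 counts. WT1 had 85.6 CPM in S, 31.1 CPM in BV, 19.0 CPM in LE and 5.67 CPM in GE. S was above BV for WT1 (log2 difference of BV minus S -1.46, SE 0.25, adjusted p = 0.000551), whereas HAND2 was not called between these compartments (-0.69, SE 0.29, adjusted p = 0.126). LE was above GE by 3.12 for HAND2 (SE 0.41) and by 1.76 for WT1 (SE 0.30), both called. LE minus BV was not called at 1% by the quasi-likelihood test for HAND2 (-0.85, SE 0.30, adjusted p = 0.0186) or for WT1 (-0.74, SE 0.26, adjusted p = 0.0174), but DESeq2 and the robust GLM called both. Without C128 the quasi-likelihood test called HAND2 there as well, and without P39 it called WT1. Fibroblast markers summed to a mean of 11109 CPM (cyclic) and 13639 CPM (pregnant) in LE, 5343 and 5219 CPM in GE, and 78027 and 72671 CPM in S. Their part in the LE levels of HAND2 and WT1 was not tested.

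HAND2 was the member of S whose groups were apart. It had 21.9, 21.2, 13.4 and 19.2 CPM in S of cyclic gilts C128, C40, C42 and C78, and 47.0, 30.98, 22.2 and 28.8 CPM in pregnant gilts P139, P39, P41 and P43. The gap was small, from 21.9 to 22.2 CPM, and the log2 fold change of 0.77 (SE 0.25, adjusted p = 0.225) was not called by any of the 3 tests. In BV it had 12.0, 15.8, 8.76 and 6.77 CPM in the cyclic and 13.1, 25.3, 24.4 and 29.5 CPM in the pregnant gilts, which overlapped through pregnant gilt P139. Its pregnancy effect there was 1.09 on the log2 scale (SE 0.32, adjusted p = 0.0615), which the robust GLM alone called (adjusted p = 0.00378). WT1 did not pass the test in any compartment, with means in S of 92.8 ± 21.4 CPM (cyclic) and 78.5 ± 31.4 CPM (pregnant; SD, n = 4 each) and log2 fold changes from -0.24 in S to 1.11 in GE, where the pooled counts were 67 and 100.

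FOXO1 was abundant in every compartment, and per kilobase of exon its mean level was 71.0 CPM in LE, 79.6 CPM in GE, 35.98 CPM in BV and 29.7 CPM in S. Neither GE and LE (log2 difference of LE minus GE -0.28, SE 0.18, adjusted p = 0.196) nor BV and S (0.26, SE 0.17, adjusted p = 0.334) were called different, and the epithelia were above both by 0.74 to 1.29 on the log2 scale, each called. In LE it had 67.6, 279, 252 and 187 CPM in cyclic gilts C128, C40, C42 and C78, and 598, 599.7, 468 and 616 CPM in pregnant gilts P139, P39, P41 and P43. The lowest pregnant library was above the highest cyclic one.

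The log2 fold change of FOXO1 in LE was 1.55 (SE 0.38, adjusted p = 0.0327), which did not pass 1%. Without cyclic gilt C128, the lowest library, it was 1.26 with an adjusted p of 0.00630 and was called, and the robust GLM and DESeq2 called it with all libraries (adjusted p = 0.000417 and 0.00113). In GE the same gilt was lowest, at 92.6 CPM beside 318, 360.0 and 499 CPM, and the pregnant libraries had 539, 500.1 and 585 CPM. The groups were apart by a narrow margin there, from 499 to 500.1 CPM, and the log2 fold change was 0.75 (SE 0.47, adjusted p = 0.376). Cyclic BV libraries held 112 to 190.4 CPM and pregnant ones 194 to 277 CPM, also apart, with a log2 fold change of 0.58 (SE 0.18, adjusted p = 0.0742). In S the groups overlapped (0.36, SE 0.22, adjusted p = 0.485). The FOXO1 effect in LE exceeded that in S by 1.35 (SE 0.34, adjusted p = 0.0253) and that in BV by 1.15 (SE 0.34, adjusted p = 0.0353), neither called at 1% by the quasi-likelihood test, whereas the robust GLM called both and DESeq2 the former. FOXO3, its nearest relative, had log2 fold changes of 0.67 in BV, 0.62 in LE, 0.55 in S and 0.29 in GE, none called by the quasi-likelihood test. DESeq2 called it in BV and S and the robust GLM in BV.

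Per kilobase of exon and over both groups, SOX17 had the highest mean of the members in LE (90.9 CPM) and in GE (87.1 CPM), FOXO1 was highest in BV and S, and the order in GE went on with FOXO1, RFX6 (61.5), MSX1 (54.1), FOXA2 (30.2), MSX2 (22.2), EMX2 (15.7), WT1 (1.01) and HAND2 (0.69). SOX17 led in the cyclic means only, with 120 CPM per kilobase in LE and 104 in GE beside 36.4 and 58.8 for FOXO1. In GE of cyclic gilts C128, C40, C42 and C78, SOX17 had 170, 82.1, 79.4 and 86.1 CPM per kilobase. FOXO1 had 17.2, 59.0, 66.7 and 92.5 there, so the lead in GE was widest in C128 and absent in C78. In the pregnant libraries FOXO1 had 106 in LE and 100.3 in GE, beside 62.1 and 69.7 for SOX17 and, in GE, 75.5 for RFX6. These ranks are of means and were not tested between genes. Over the 6 pairs of compartments, 37 of 54 comparisons of members were called at 1%, or 68.5%, beside 44.3% over all genes. The robust GLM called 41 (all genes 48%) and DESeq2 called 39 (47.4%). GE differed from BV and from S for 9 of 9 members (all genes 58.3% and 59.3%), LE from S for 7 of 9 (50.6%), LE from GE for 6 of 9 (41.4%), LE from BV for 5 of 9 (49.2%) and BV from S for WT1 alone (7.19%).

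For pregnancy, 1 of 31 comparisons of members was called, which was SOX17 among 7 members in BV (all genes 1.86%). None of the 8 tested in LE (3.32%), the 8 in GE (0.748%) or the 8 in S (0.293%) was called. An unadjusted p under 0.05 was reached by 5 members in BV, 4 in LE, 2 in GE and 1 in S. The robust GLM called 4 members in BV (11%), 3 in LE (11.8%), 1 in GE (6.66%) and none in S (3.16%). DESeq2 called 2 members each in BV (8.5%), LE (11.2%) and GE (6.64%) and none in S (2.6%). A quasi-likelihood test at a false discovery rate of 5% called SOX17 and MSX1 in BV (8.63%), SOX17 and FOXO1 in LE (10.7%), EMX2 in GE (1.86%) and none in S (0.0335%). Groups were apart for 3 of 7 detectable members in BV (18.2% of all genes), 3 of 8 in LE (19.4%), 4 of 8 in GE (22.9%) and 1 of 8 in S (8.81%). In BV the 3 that were apart, SOX17, MSX1 and FOXO1, were all higher in pregnant gilts (8.68%).

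**Figure D4:**
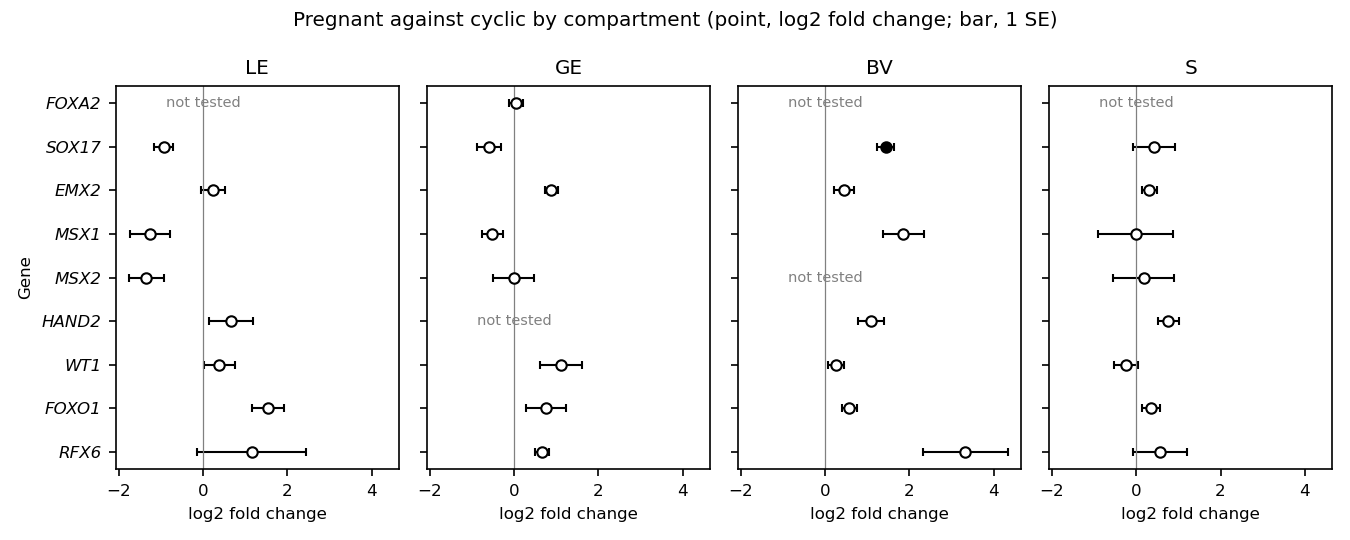
Log2 fold change of pregnant against cyclic gilts (point) with 1 SE (bar) for each member in LE, GE, BV and S, from the quasi-likelihood fit of that compartment. The filled point is the call (SOX17 in BV, 1.44), open points were not called, and members that were not detectable in a compartment are marked as not tested. In LE, SOX17, MSX1 and MSX2 lie below 0 and FOXO1 above it.

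Whether the pregnancy effect differed among the 4 compartments could be tested for the 6 members detectable in all of them. None was called at 1% by the quasi-likelihood test (all genes 3.05%), with 4 at an unadjusted p under 0.05, and SOX17 (adjusted p = 0.0283) and FOXO1 (adjusted p = 0.0437) were nearest. At 5% both were called (all genes 9.49%), and at 1% the robust GLM called 3 of the 6 (10.7%) and DESeq2 called 1 (8.67%). Of the 36 differences between single pairs of compartments, that of SOX17 between LE and BV was called by the quasi-likelihood test, beside 1.11% over all genes and pairs. At 5% there were 4 (3.57%). DESeq2 called 3 (2.92%) and the robust GLM called 6 (3.46%), among them SOX17 and MSX1 in GE minus BV (adjusted p = 0.00357 and 0.00284).

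Genes around the members were taken from 7 lists of 129 genes, of which 90 to 97 were tested in a compartment. The lists, like the members, were chosen with earlier results of these data known. Their shares beside those of all genes are therefore a description and not a test. In LE 5 were higher and 2 lower (7.29% of 96, beside 3.32% of all genes). Pregnant GE had 2 higher (2.22% of 90, beside 0.748%) and pregnant BV 5 higher (5.21% of 96, beside 1.86%). None of 97 was called in S (all genes 0.293%), with 14 at an unadjusted p under 0.05, 4 called by the robust GLM and 3 by DESeq2. By share of tested genes, the FGF list led in LE (1 of 7, 14.3%). The Mullerian and epithelial factors led in BV (2 of 7, 28.6%) and GE (1 of 8, 12.5%). These shares rest on 1 or 2 genes, and by number the FOXO1 list had the most calls in LE (3 of 28, 10.7%). The longest list was that of the FOXO1 pathway and its targets. Of 28 genes tested in LE, 26 had a log2 fold change above 0 and 3 rose, with a list median of 0.98 beside -0.01 for all genes. In GE 21 of 27 were above 0 and 1 rose (median 0.94), and in BV 22 of 27 and 2 rose (0.41). On this list the robust GLM called 15 higher and 1 lower in LE, 13 higher in GE and 7 higher in BV (all genes 11.8%, 6.66% and 11%). DESeq2 called 12, 9 and 5 in the same order (all genes 11.2%, 6.64% and 8.5%). In S 20 of 27 were above 0 and none was called (0.33). There 5 had an unadjusted p under 0.05, and the robust GLM called 2 and DESeq2 0. Other lists also lay above 0 in GE. Medians of the 7 lists ran there from 0.06 (paralogs) to 0.94, with 0.86 for stromal factors. Of all listed genes, 66 of 90 were above 0 in GE (median 0.55).

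The named calls had large steps in CPM. FGF9, one of the growth factors that HAND2 holds down, rose in LE from 2.37 ± 1.35 to 23.1 ± 6.21 CPM (log2 fold change 3.27, SE 0.40, adjusted p = 0.00208). FZD6, a Wnt receptor, fell in LE from 172 ± 23.7 to 84.8 ± 10.2 CPM (log2 fold change -1.01, adjusted p = 0.00466). CITED2, a coactivator on the FOXO1 list, rose from 30.8 ± 1.94 to 64.3 ± 12.5 CPM (log2 fold change 1.08), and KLF9, a partner of the progesterone receptor, rose from 6.51 ± 4.32 to 37.1 ± 4.42 CPM (log2 fold change 2.50, SD and n = 4 per group throughout). LE fits without 1 library needed a false discovery rate of 1%, adjusted anew in each fit. When 1 library was left out, FGF9 (3.07 to 3.74) was no longer called without C42, and the calls of PAX2 (-1.78 to -1.48) and FZD6 (-1.08 to -0.95) were lost without C40, C42, P39, P43 or P139. CITED2 (0.98 to 1.15) lost its call without any of these or P41, and KLF9 (2.27 to 3.12) without any gilt except C78.

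In GE, KLF15, a Kruppel-like factor on the FOXO1 list, rose from 38.2 ± 7.95 to 109 ± 4.41 CPM (log2 fold change 1.50, adjusted p = 0.0296), and EHF, an epithelial ETS factor, rose from 54.1 ± 8.01 to 137 ± 22.5 CPM (log2 fold change 1.33, adjusted p = 0.0296, SD, n = 4 and 3). Without 1 library, KLF15 (1.36 to 1.59) lost its call without C40, P39, P43 or P139, and EHF (1.22 to 1.46) without C42, P39 or P43.

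In BV, KLF15 rose from 15.1 ± 1.97 to 45.6 ± 12.5 CPM (log2 fold change 1.61) and IRS2, an adaptor of the insulin receptor, from 13.2 ± 5.85 to 47.8 ± 12.7 CPM (log2 fold change 1.88). The other 3 BV calls were genes of epithelium. CDH1, the epithelial cadherin and also one of the 10 epithelial markers, rose from 4.82 ± 2.90 to 65.0 ± 22.8 CPM (log2 fold change 3.77). EHF and GRHL2, a grainyhead factor of epithelium, rose to 12.1 ± 4.63 and 10.7 ± 1.60 CPM from 1.98 ± 0.90 and 1.12 ± 0.83 CPM. CDH1 and KLF15 were called in BV in each of 8 fits without 1 library, by the unadjusted p limit taken from LE. EHF (2.36 to 2.86) was lost without C40, C42, C128, P41 or P139, GRHL2 (2.82 to 3.73) without C40, C78 or any pregnant gilt, and IRS2 (1.64 to 2.14) without C40, C42, P39, P43 or P139.

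By list, the calls outside the FOXO1 group were as follows. Among the paralogs, PAX2 fell in LE (10 tested) and no other was called by the quasi-likelihood test, with 8 tested in BV, 8 in GE and 9 in S. The robust GLM and DESeq2 also called SOX18 and FOXO3 in BV and FOXO4 in GE, and DESeq2 called FOXO3 in S. Of the Mullerian and epithelial factors, EHF rose in GE (8 tested), EHF and GRHL2 rose in BV (7 tested, list median 2.63), and none was called in LE or S (7 tested in each, with 3 at an unadjusted p under 0.05 in each, and 1 and 2 called by DESeq2). No stromal factor was called in LE, GE, BV or S (14, 12, 16 and 16 tested, with 2, 7, 2 and 1 at an unadjusted p under 0.05), and the robust GLM and DESeq2 each called 3 in GE and 0 elsewhere. In the group of Indian hedgehog, the progesterone receptor and BMP2, KLF9 rose in LE (14 tested), and none was called in GE, BV or S (16, 17 and 15 tested, with 6, 8 and 3 at an unadjusted p under 0.05). There the robust GLM called 6, 1 and 0 genes and DESeq2 called 3, 0 and 0. By the quasi-likelihood test, FGF9 in LE was the one call among fibroblast growth factors and receptors, where the robust GLM called 3 in LE and 1 in GE and DESeq2 called 2 and 1. Of the Wnt genes, FZD6 fell in LE and CDH1 rose in BV by that test, while the robust GLM called 3 in LE, 4 in BV and 3 in GE and DESeq2 called 3, 3 and 2.

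Likeness of pattern was described by Pearson's r of log2(CPM + 1) over the 31 libraries and 13887 genes. The libraries share compartments and gilts, so r mainly restates the order of compartments. FOXA2 was most like PLPP4 (0.972), STK33 (0.961) and LOC102157949 (0.959), and RFX6 was most like FOXA2 (0.953), LOC110260274 (0.944) and VWA3B (0.940). SOX17 was most like PERP (0.962), ILDR1 (0.961) and PAX2, and MSX1 most like UGT8 (0.971), LOC100627466 (0.960) and DLX6 (0.959), another homeobox gene. MSX2 was most like ARHGEF38 (0.907), STX18 (0.906) and SAT1 (0.902), and EMX2 most like LOC110262115 (0.884), UGT2B31 (0.871) and TGIF1 (0.867). HAND2 was most like ADGRA2 (0.955), PLA2R1 (0.951) and PXDN (0.951), WT1 most like IGDCC4 (0.953), ASTN1 (0.947) and LOC110261613 (0.946), and FOXO1 most like SOD3 (0.898), SERPINA11 (0.888) and LOC110256041 (0.885). Between members, MSX1 and SOX17 had r = 0.891 and MSX1 and MSX2 had 0.845, while MSX1 and WT1 had -0.792.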

How the data were processed

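Endometrial compartments were sequenced by the authors as low-input single-read libraries with the Ovation SoLo system. Reads were trimmed by Trim Galore and aligned by Hisat2 to the pig genome Sscrofa11.1, PCR duplicates were taken out, and QuasR counted the rest by NCBI gene. Removal of duplicates lowers counts of strongly amplified molecules, and strand was not stated. The deposited values are whole-number counts without normalization, with a full table of 30185 genes and a CPM-filtered table for each compartment. Totals were 2415216 to 7081556 counts, with a median of 3624021. Ribosomal RNA genes took 5.20% to 16.9% of the counts. 0 rows named no gene.

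Pregnant and cyclic libraries were compared on the filtered counts in each compartment by edgeR 4.0.16 in R 4.3.3 (TMM, quasi-likelihood test, p-values adjusted by Benjamini and Hochberg over all genes of the compartment). Following the study's rule, calls in LE needed a false discovery rate of 1%, and the largest unadjusted p among them, 3.28e-04, was the limit for the other compartments. This limit was 0.00114 for edgeR's robust GLM and 0.00112 for DESeq2 1.42.0, both run as alternatives. The study's methods name the robust GLM as their test. Fits without 1 library kept the limit of 3.28e-04 in GE, BV and S. In LE such fits needed a false discovery rate of 1%, adjusted anew. Calls kept or lost without 1 library therefore do not compare between LE and the other compartments. Levels and differences of pregnancy effects between compartments came from a joint fit of 31 libraries with the gilt as a block, called at 1%. Each gilt gave captures of all compartments analysed here, except that P41 had no GE library, so the gilt pairs libraries between compartments. Of 45 pairs of captures from 1 gilt, 35 had residual correlations above 0.1 (median 0.165, -0.14 to 0.372). Libraries of a group come from different gilts. SEs were derived from the F statistics. Means are CPM after joint TMM scaling. Scripts were tested on simulated data.

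Members and lists were chosen with earlier results of these data known. All members were named, and of the listed genes called in a compartment all were named if there were 5 or fewer and otherwise the 5 with the smallest p. For each member the 3 genes with the highest r were named as well. SOX7, SOX18, FOXA1 and FOXO3 were added as close relatives, after values were seen. Alternatives were RLE scaling, other filters, 5% false discovery rate, fits without ribosomal RNA genes, fits without the block and fits without each library or gilt. Complete endometrium was not analysed here. Sequences were read with pysam from the RefSeq genome of the same build, and the gene IDs of all 30185 genes matched its annotation. Sequences of the other relatives are not reported here.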

Additional observations from a re-analysis of the deposited data

Results flagged for a closer look

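Among 63 groups of 4 libraries, 9 held a library whose distance to its nearest neighbour was large beside the range of the group. The cut-off flags about 1 in 20 groups of normally distributed values. That rate may not hold here, because the values were unlogged CPM, some near 0, and the groups share libraries. The values are CPM, with that of the next library after each. Cyclic gilt C128 was the far library 3 times: SOX17 in GE at 399.8 (next 203), MSX1 in LE at 105 (next 43.7) and MSX2 in GE at 106 (next 36.7). Pregnant gilt P139 was far in LE for both gland factors, with FOXA2 at 7.42 (next 0) and RFX6 at 55.0 (next 5.07), and cyclic gilt C78 was far in LE for RFX6 at 22.9 (next 2.61). In S, FOXA2 was at 14.3 in pregnant gilt P41 (next 1.13) and EMX2 at 31.5 in cyclic gilt C40 (next 23.3). FOXO1 in pregnant LE was low in gilt P41, at 468 (next 598).

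The pregnancy effect on SOX17 differed between LE and BV by the joint fit's quasi-likelihood test (log2 difference -2.38, adjusted p = 0.00828). That call was lost without any one of C40, C42, C128, P39, P41, P43 and P139. The quasi-likelihood test over all 4 compartments did not call SOX17 (adjusted p = 0.0283).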

How the results depend on the processing

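Counts of called members varied most with the test. The quasi-likelihood test called 0 members in LE, DESeq2 2, the 5% limit 2 and the robust GLM 3. In GE these counts were 0, 2, 1 and 1, and in BV 1, 2, 2 and 4, with 2 without a filter. Leaving out 1 library gave 1 in BV, 0 to 1 in LE and 0 in S and GE. Listed genes called in LE were 7, with 21 by DESeq2, 20 at 5% and 25 by the robust GLM, and 0 to 10 without 1 library. In GE they were 2, with 20, 9 and 28, 4 without a filter, and 0 to 5 without 1 library. In BV they were 5, with 14, 13 and 18, 8 without a filter, and 2 to 7 without 1 library. In S they were 0, with 3 by DESeq2, 4 by the robust GLM, 1 without a filter, and 0 to 1 without 1 library. In LE the count was 0 without cyclic gilt C42, and in GE it was 0 without pregnant gilt P39 and 5 without cyclic gilt C128. Members whose effect differed over the 4 compartments were 0, with 1 by DESeq2, 2 at 5% and 3 by the robust GLM, and 0 without any 1 gilt. The cause of these shifts was not tested.

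Without the replicate block, 36 rather than 37 member differences between compartments were called, 0 members differed in their effect, as with the block, and EMX2 in LE minus GE turned to 0.073. No call changed except MSX1 in LE minus GE.

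Some differences that the quasi-likelihood test did not call turned sign. Of these, FOXA2 in LE minus S was called by the robust GLM. SOX17 in LE minus GE (0.01) became -0.071 by DESeq2, -0.070 with RLE scaling, -0.11 without a filter and -0.032 over genes detectable in all 4 compartments. The effect on MSX1 in S (-0.01) became 0.054 by DESeq2, 0.0079 with RLE scaling and 0.013 with filterByExpr, that on MSX2 in GE (-0.01) became 0.0032 by DESeq2, 0.0028 with RLE scaling and 0.41 by the robust GLM, and that on MSX2 in S (0.18) became -0.091 by the robust GLM. Without 1 library or gilt, the differences ranged from -0.10 to 0.049 for EMX2 and -0.16 to 0.14 for SOX17 in LE minus GE, from -3.85 to 0.67 for FOXA2 in LE minus S, and in BV minus S from -0.10 to 1.87 for FOXA2, -0.10 to 0.90 for MSX1, -0.72 to 0.17 for MSX2, -0.11 to 1.12 for RFX6 and -0.43 to 0.058 for SOX17. Pregnancy effects ranged from -0.0023 to 0.37 for EMX2 and -1.39 to 3.17 for RFX6 in LE, -0.068 to 0.14 for FOXA2 and -0.30 to 0.62 for MSX2 in GE, and -1.15 to 0.72 for MSX1 and -0.66 to 0.60 for MSX2 in S.

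Levels without ribosomal RNA genes rise with the smaller library total. They moved by over 1 SD for FOXA2 in GE (90.8 cyclic, 94.6 pregnant), SOX17 in pregnant LE (169.8) and GE (193), EMX2 in GE (41.4 cyclic, 77.0 pregnant) and pregnant S (35.1), MSX2 in cyclic LE (31.4), WT1 in pregnant BV (38.6), FOXO1 in pregnant LE (664) and GE (636) and RFX6 in cyclic GE (412 CPM). SOX17 in pregnant GE was 172 CPM with RLE scaling and 170.3 CPM by the library total alone, which gave 39.4 CPM for EMX2 and 391 CPM for RFX6 in cyclic GE. Low counts limit FOXA2 and RFX6 in LE, BV and S, MSX1 and MSX2 in BV and S and HAND2 in GE.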
